A study of Caenorhabditis elegans with 2 samples.

Results

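The regions described here are 730 strong F57C9.4 ChIP-seq intervals whose summits lay in introns of protein-coding genes of Caenorhabditis elegans, away from annotated transcript starts. They were chosen by their pooled signal and by annotation: the 30000 intervals of the list made from both replicates were ranked by the peak caller's signal value, and the best 5000 were kept. Of these, 3382 had a summit inside a protein-coding gene, 1243 of them in no annotated exon of any gene, and 730 of those more than 500 bp from any annotated transcript start. The members therefore made up 14.6% of the best 5000 intervals (Wilson 95% interval 13.6% to 15.6%). The references were the 4964 weaker pooled intervals, ranked below 5000, that met the same annotation rule, and the 23.31 Mb of genome bases that met it (23.25% of 100.3 Mb).

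All libraries came from 1 group, whole young adult worms of mixed sex from strain OP550, collected 66 h after synchronisation as starved L1 larvae, with 2 biological replicates numbered 5 and 6. The strain carries the mutation unc-119(tm4063) on chromosome III and the integrated transgene wgIs550, which encodes F57C9.4 with a C-terminal GFP and FLAG tag, and sonicated chromatin was immunoprecipitated with an anti-GFP antibody. The labels do not say whether the F57C9.4 gene of the line itself was altered, and a control experiment is named in the labels only as a possible one. Because whole animals were used, an interval bound in few cells and one bound weakly in all cells cannot be told apart, and there was no second condition to compare.

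Introns of nematodes are mostly short, and the long ones, often the first, are known to hold enhancers and start sites of shorter transcripts of the same gene. Many worm transcripts have a spliced leader added in trans in place of their own first bases, so that annotated starts can lie downstream of the true site of initiation. F57C9.4 itself is known here only by its sequence name, and the files give it no function.

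The sequences at the 6 strongest members, all among the best 5000 intervals of each replicate, are shown first because they carry the highest signals of the group. Each is the plus strand of WBcel235 (the same assembly as ce11, from RefSeq), from 50 bases before the summit to 50 after it. Capitals mark any of the 10 6-mers most over-represented at member summits relative to weaker summits, and the 9-base run CTGCGTCTC, both described with the sequence results.

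mdt-26 (chrII:5661736-5661836): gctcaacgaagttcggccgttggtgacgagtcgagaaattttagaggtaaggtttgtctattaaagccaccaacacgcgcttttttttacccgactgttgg
lips-10 (chrII:8441663-8441763): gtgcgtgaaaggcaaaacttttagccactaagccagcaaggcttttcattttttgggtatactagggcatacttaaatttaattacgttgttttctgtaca
epg-9 (chrIV:2602100-2602200): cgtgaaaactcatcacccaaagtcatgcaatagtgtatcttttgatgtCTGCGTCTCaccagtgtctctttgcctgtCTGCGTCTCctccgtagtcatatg
T21H3.5 (chrV:1158415-1158515): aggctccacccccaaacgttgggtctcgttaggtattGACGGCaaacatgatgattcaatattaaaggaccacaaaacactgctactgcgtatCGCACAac
mom-1 (chrX:6296446-6296546): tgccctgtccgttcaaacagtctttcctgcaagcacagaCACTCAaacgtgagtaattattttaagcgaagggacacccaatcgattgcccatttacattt
M01H9.3 (chrIV:4471514-4471614): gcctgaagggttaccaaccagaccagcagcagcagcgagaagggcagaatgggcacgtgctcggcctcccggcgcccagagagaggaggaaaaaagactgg

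The mdt-26, lips-10 and M01H9.3 windows held none of the marked words, T21H3.5 held GACGGC and CGCACA once each, mom-1 held CACTCA once, and epg-9 held the 9-base run 2 times. The GC content of the windows was 46.53% at mdt-26, 36.63% at lips-10, 46.53% at epg-9, 46.53% at T21H3.5, 43.56% at mom-1 and 62.38% at M01H9.3. M01H9.3 stood highest and lips-10 lowest, at the level of the flanks of members (median 36.63%).

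Pooled signal ran from 35.63 to 190.7 over the members, with a median of 41.61. It is the authors' value and serves to rank intervals within a list. The last member, in F09B9.5 at X:10156191, ranked 4984 with a signal of 35.63. The first interval outside that met the annotation rule, in ztf-22 at II:13282001, ranked 5002 with a signal of 35.6, so the threshold separates near-equal values. The distance limit likewise left out 513 intronic summits at 500 bp or less from a start. The deposited q-value of members had a median of 0.1823 (range 0.004926 to 0.3729), and 97 members (13.3%, Wilson interval 11% to 15.9%) had a q-value under 0.05, against 20.9% of all best 5000 intervals. Of the members, 19 (2.6%) were among the 360 peaks that passed the authors' reproducibility filter (irreproducible discovery rate, IDR), against 7.2% of the best 5000 intervals as a whole. The pooled signal chose the members and orders the q-values and IDR peaks alike, so nothing is read from these counts.

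The share of intervals that met the annotation rule was lowest among the strongest. It was 5.28% for the 360 best ranks (19 intervals, Wilson interval 3.4% to 8.1%), 11.7% for the next 640 (9.45% to 14.4%) and 15.2% to 17.4% in each further 1000 ranks down to 5000. Among the weaker intervals it was 17.6% in the first 5000 and 20.1% to 20.8% in the rest, 19.9% over all 25000. All of these lay below the 23.25% of genome bases. The strongest intervals of the list thus met the annotation rule less often than weaker intervals or than bases of the genome, and the share came nearer to that of the genome at weaker ranks. Between chromosomes, the number of members per Mb of bases that meet the rule was lowest on chromosome I (25.5) and highest on chromosome II (39.6), with 29.8 to 33.7 on the others. Chromosome II held 134 members (18.4%), against 14.8% of weaker intervals and 14.5% of the bases.

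**Figure D1:**
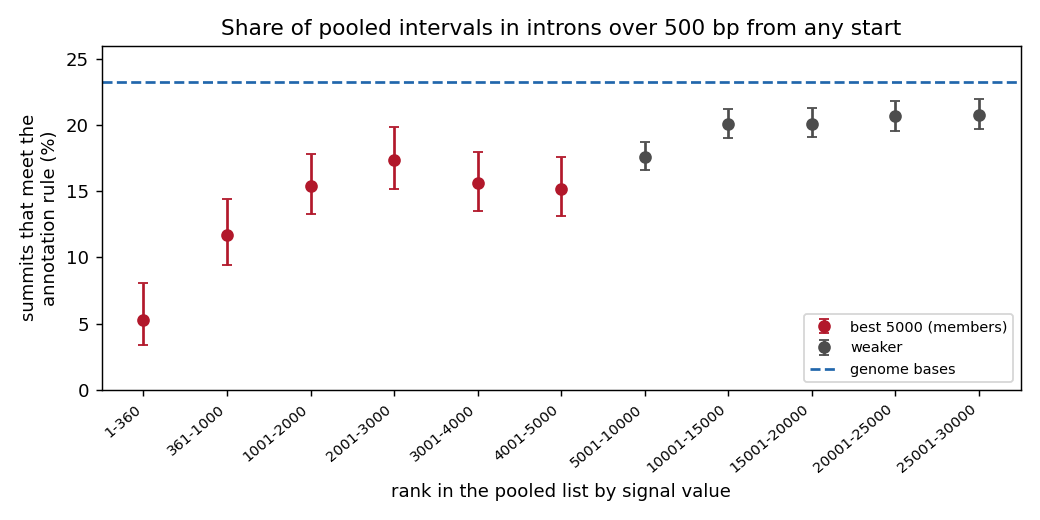
Share of pooled intervals (vertical axis, percent) whose summit lay in an intron of a protein-coding gene, in no exon and over 500 bp from any start, by rank in the pooled list (horizontal axis). Points are shares with Wilson 95% intervals, red for the best 5000 ranks that hold the members and grey for weaker ranks; the dashed line is the share of genome bases. The share is 5.28% in the 360 best ranks and reaches 20.8% in the last 5000, under the 23.25% of bases throughout.

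The strongest member lay in intron 2 of mdt-26, which encodes a subunit of Mediator, the complex that links transcription factors to RNA polymerase II. Its summit was at II:5661786, 5 bp inside an intron of 386 bp and 592 bp from the nearest start, which is of mdt-26 itself. Its signal was 190.7 in the pooled list (rank 7), 126.2 in replicate 5 (rank 5) and 70.17 in replicate 6 (rank 14). A second member in the same intron, at II:5661985, had a pooled signal of 80.6, with 59.21 in replicate 5 and 33.85 in replicate 6. The intervals shared 33 bp and their summits were 199 bp apart, so they adjoin. Of the first interval's 272 bp, 158 were exonic. Another of the best 5000 summits lay within 500 bp of a start of mdt-26.

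Among the next members by signal were genes of varied function. In lips-10, named for similarity to lipases, a summit at II:8441713 in intron 3, the last, had a pooled signal of 99.85, with 55.58 in replicate 5 and 36.29 in replicate 6. In epg-9, an autophagy gene, a summit at IV:2602150 in intron 2 had 99.19, with 46.08 in replicate 5 and 49.06 in replicate 6, and its whole interval was free of exons. Within T21H3.5, a summit at V:1158465 in intron 4 had 93.09, with 62.58 in replicate 5 and 35.87 in replicate 6, and its window held a 31-mer with 3 copies in the genome. In mom-1, which encodes the Porcupine-type acyltransferase that prepares Wnt ligands for secretion, a summit at X:6296496 lay 3 bp inside intron 7, 3384 bp from the nearest start, with 92.62 pooled, 63.34 in replicate 5 and 31.38 in replicate 6. Each of these 4 ranked within the best 364 of both replicates. The 6 members in the best 360 of both replicates were the pair in mdt-26 and those in lips-10, epg-9, T21H3.5 and epc-1, the worm gene for the Enhancer of Polycomb homologue (III:12607501, pooled signal 76.75).

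A cluster of 5 members spanned 6070 bp across the neighbouring genes M01H9.3 and M01H9.5 on chromosome IV. Intron 1 of M01H9.3, 6162 bp long, held 4 of them. Their summits were at IV:4471564, IV:4472564, IV:4473239 and IV:4474189, with pooled signals of 86.96, 57.16, 56.65 and 71.53. The replicate 5 ranks of these 4 were 121, 637, 528 and 223, and the replicate 6 ranks 495, 2185, 3807 and 1035, so all 4 were among the best 5000 of each replicate. The fifth member, in M01H9.5 at IV:4468119, had a pooled signal of 71.76 with a replicate 5 rank of 65 and a replicate 6 rank of 1345. Within 500 bp of a start of M01H9.3 there was a pooled summit of rank 1202.

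Further IDR members lay far from exons in long first introns. Intron 1 of daf-5, which encodes a Ski-related repressor that acts in the TGF-beta pathway of dauer formation, is 14446 bp long and held a summit at II:14040588, 2867 bp from the nearest start and from the nearest exon, with a pooled signal of 79.18, 45.08 in replicate 5 and 35.29 in replicate 6. Intron 1 of F16A11.1 (5465 bp) held a summit at I:9400145 with 71.74 pooled, 56.34 in replicate 5 and 19.49 in replicate 6. These replicate values had ranks 144 and 3072. Other IDR members were in srh-2, a chemoreceptor gene (V:729059, 68.57), Y41G9A.17 (X:2997098, 76.54) and Y54G2A.77 (IV:2765293, 78.7).

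Several of the strongest members lay in introns much shorter than the interval. The pck-2 intron that held the summit at I:7871155 (pooled signal 68.36) is 45 bp long, and 359 of the 404 interval bases were exonic; pck-2 encodes a phosphoenolpyruvate carboxykinase. In B0395.3 (X:16038172, 70.58) the intron has 54 bp and the interval 330 exonic bases. In inpp-5K, which encodes an inositol polyphosphate 5-phosphatase (III:8160740, 69.38), they were 113 bp and 272 bases, and in zig-7, a gene for a secreted immunoglobulin-domain protein (I:4791025, 64.23), 57 bp and 258 bases. In these intervals most bases were exonic, and the intronic class rests on the summit position alone. Summits lay at the middle of the interval for 99.9% of pooled intervals. The remaining members of the 25 with the highest signal were in ret-1, a reticulon gene (V:14846639, 69.73), cpz-1, a cathepsin Z gene (I:2687234, 65), Y54G2A.26 (IV:2993511, 64.77), abu-12 (X:451629, 63.85), T10C6.7 (V:16027788, 63.85) and glo-2, needed for the biogenesis of gut granules (I:4841858, 63.6). The replicates were unequal at some of these: the replicate 5 rank of ret-1 was 207 and its replicate 6 rank 5086, those of cpz-1 were 126 and 7604, whereas Y54G2A.26 ranked 1508 in replicate 5 and 330 in replicate 6.

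The host introns of members were long at the upper end. Members lay in introns with a median of 994.5 bp (quartiles 409.8 and 3779), weaker intervals in introns of 844.5 bp (337 and 2544), and the bases that meet the rule in introns of 970 bp (454 and 2275). Introns over 5000 bp held 18.1% of members (Wilson interval 15.5% to 21%), against 13.2% of weaker intervals (12.3% to 14.2%) and 11.54% of bases. The medians were thus close, and the upper quartile of members stood well above both references. Introns over 10000 bp held 5.48% of members, 4.15% of weaker intervals and 3.141% of bases. The longest member intron, 20993 bp in Y75B7AL.2, held 2 members (V:1336452, signal 62.14, and V:1350032, 39.11). At the short end, 24.8% of members, 28.7% of weaker intervals and 22.18% of bases lay in introns shorter than the 404 bp of a full interval, and the shortest, in mec-18, had 40 bp.

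**Figure D2:**
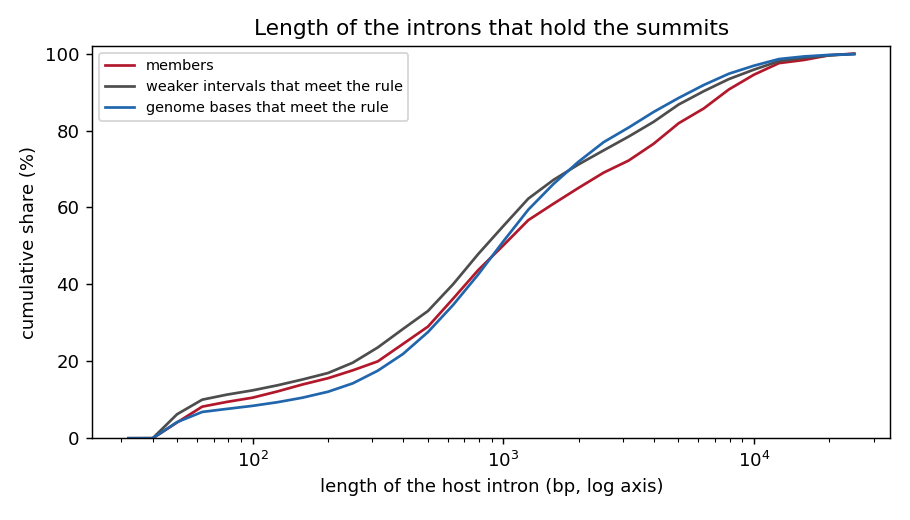
Cumulative share (vertical axis, percent) of members (red), weaker intervals that meet the same annotation rule (grey) and genome bases that meet it (blue) by the length of the host intron (horizontal axis, bp, log scale). The member curve lies below the others beyond about 1000 bp, with 18.1% of members but 13.2% of weaker intervals and 11.54% of bases in introns over 5000 bp.

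By position in the transcript, 21% of members were in the first intron (18.2% to 24.1%), against 17.1% of weaker intervals (16.1% to 18.2%) and 16.24% of bases. The last intron, where it was not also the first, held 20.3% of members (17.5% to 23.3%), 16% of weaker intervals (15% to 17.1%) and 15.95% of bases. Second introns held 13.4%, 15% and 14.82% of members, weaker intervals and bases, and introns beyond the third 51.9%, 54.5% and 55.12%. The median intron number was 4 in all 3 sets. First introns that held a member were longer (median 3482 bp) than later ones (728 bp), and median signals were 41.55 in first and 41.72 in later introns. The first-intron share of members moved with the distance limit, to 17.07% over 1000 bp and 26.12% over 250 bp from any start. Among the 382 members whose whole interval was free of exons it was 35.6%, and their median intron length was 3122 bp. The shares of weaker intervals and of bases were not recomputed under these alternatives. In the 255 members in introns over 2000 bp, the summit lay at a median of 57.32% of the intron from its 5′ end, against 54.82% for 1424 weaker intervals, and the first 25% of the intron held 14.9% of these members and 21.1% of weaker intervals. The distance limit removes bases within 500 bp of any start from members and weaker intervals alike.

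Of the member intervals, 382 (52.3%) held no exon base at all, against 46.4% of weaker intervals. At least 50% of the interval was exonic in 14.5% of members and 15.4% of weaker intervals. Summits lay at a median of 221.5 bp from the nearest exon in members and 176 bp in weaker intervals. The nearest annotated start was at a median of 1362 bp in members and 1366 bp in weaker intervals, and belonged to the host gene in 65.9% and 65.4%. It was a start of a protein-coding gene for 82.1% of members, of a non-coding RNA gene in the annotation class ncRNA for 11.4%, and of a piRNA gene for 2.88%. For weaker intervals these were 81.7%, 12.2% and 1.99%. Members and weaker intervals differed little in their distance to starts and in the kind of start. Another annotated gene lay wholly inside the host intron of 14.8% of members. That share was not counted for weaker intervals, so nothing particular to members is read from it.

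The 730 members had 607 host genes of the 16276 protein-coding genes with a base that met the rule. Of the hosts, 527 held 1 member, 54 held 2, 14 held 3, 9 held 4, 2 held 5 and 1 held 7. The 80 genes with 2 or more held 203 members (27.8%), a share with no reference beside it. The gene with the most, spsb-1, encodes a SPRY-domain and SOCS-box protein and has 24.7 kb of bases that met the rule, so that its 7 members amount to 0.283 per kb. Their signals ran from 36.6 to 46.86, in introns 2 and 3, and 13 weaker intervals lay in the same gene. The 4 members of M01H9.3 lay in 5.22 kb, or 0.766 per kb.

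In daf-16, which encodes the FOXO factor of the insulin pathway, 5 members lay in introns 3, 4 and 6. The strongest, at I:10764160, had a pooled signal of 57.12 and was 506 bp from the nearest start, ranking 1119 in replicate 5 and 9964 in replicate 6. The summit at I:10765652 (48.03) ranked 608 in replicate 5 and 1799 in replicate 6 and was the only one of the 5 in the best 5000 of both replicates. In ncl-1, which encodes a B-box protein that limits nucleolar size, 3 of 5 members were in intron 1 (7302 bp), 1 in intron 3 and 1 in the 55-bp intron 11. The strongest, at III:7725431, had 53.28 and ranked 2090 in replicate 5 and 2730 in replicate 6. The heterochronic gene lin-14, a classic target of the lin-4 microRNA, held 4, of which 3 were in its 10754-bp intron 3, with signals of 53.57, 38.62 and 37.51. None of these 3 was in the best 5000 of replicate 6. In mnk-1, which encodes a kinase downstream of MAP kinases, the strongest of 4 (II:10552163, 57.13) ranked 329 in replicate 5 and 1472 in replicate 6, while its member at II:10547708 (43.91) ranked 18876 in replicate 5 and 166 in replicate 6. The other genes with 4 were unk-1, aagr-2, ZK470.2, ccch-1, miz-1 and Y48C3A.5.

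**Figure D3:**
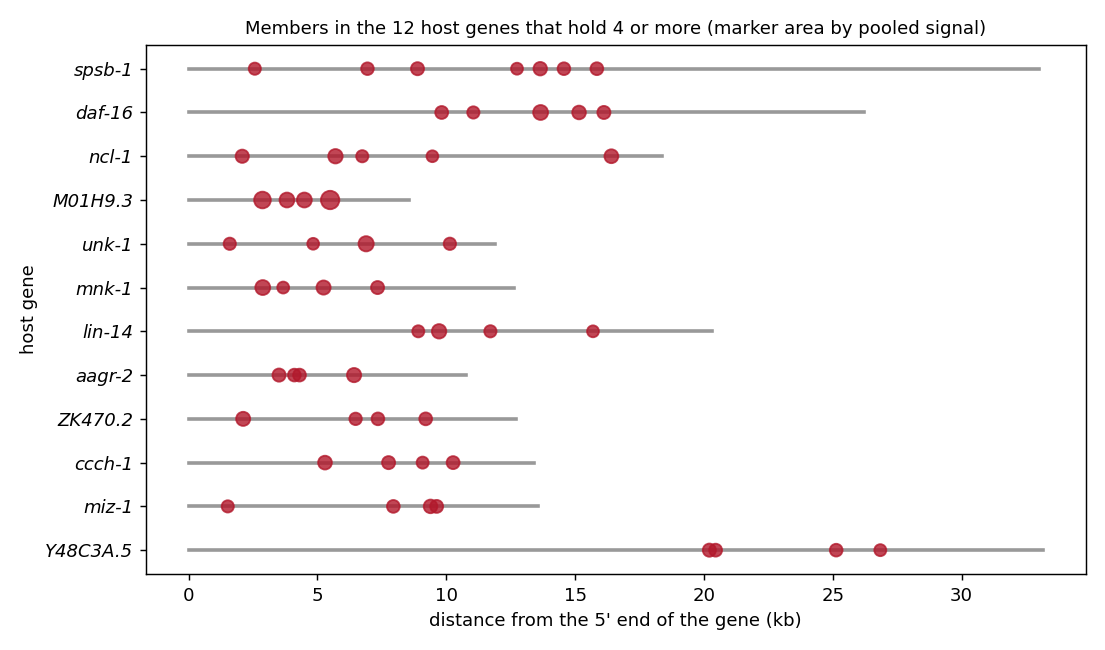
Positions of members in the 12 host genes with 4 or more. Each grey line is a gene from its 5′ end (horizontal axis, distance in kb), each red point a member summit, with marker area in proportion to pooled signal (35.77 to 86.96 here). The M01H9.3 members include the strongest shown, at 86.96, and lie within 1 intron, whereas the 7 of spsb-1 reach 46.86 at most and are spread over 2 introns.

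Some hosts also had strong intervals at their own starts. A best 5000 summit lay within 500 bp of an annotated start of the same gene for 146 of the 607 hosts (24.1%, Wilson interval 20.8% to 27.6%), against 295 of 2925 genes that held only weaker intervals (10.1%, 9.05% to 11.2%) and 1145 of all 15669 genes with bases that met the rule and no member (7.31%). These gene sets also differed in size: the median length was 5.686 kb for hosts, 4.513 kb for genes with only weaker intervals and 2.351 kb for all genes without a member, with a median of 2, 1 and 1 annotated starts. The part of gene length and of the number of starts in this difference was not tested. Hosts and start summits were both taken from the best 5000 pooled intervals, so these shares describe the hosts and are no independent evidence. An IDR peak lay within that distance of an own start for 10 of the hosts (1.65%, 0.897% to 3.01%), against 31 of the genes with only weaker intervals (1.06%, 0.748% to 1.5%) and 135 of all genes without a member (0.862%), shares whose intervals overlap between hosts and both references. Within 1000 bp of the summit, 19.3% of members and 19% of the other best 5000 intervals had another best 5000 summit. Another member lay within that distance for 8.77% of members. This last share has no reference beside it, so nothing particular to members is read from it.

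The transgene carries a tagged copy of F57C9.4 (I:4830135-4835622), and transgenes of the wgIs series are known to hold flanking genomic DNA as well, to an extent the labels do not give. Within 20 kb of either end of F57C9.4 there were 4 members, in glo-2 (I:4841858, signal 63.6, and I:4843738, 61.8), F57C9.6 (I:4822992, 43.4) and tofu-4 (I:4825479, 43.22), at 4656 to 8116 bp from the gene. In this window of 45.5 kb members stood at 87.9 per Mb, against 7.83 per Mb on the whole chromosome. The best 5000 intervals numbered 10 there, or 220 per Mb, against 51.4 per Mb on the chromosome. Pooled intervals of any rank numbered 23 there, or 506 per Mb, against 294 per Mb on the chromosome. The same window at unc-119 held 0 members, 0 of the best 5000 intervals and 10 pooled intervals of any rank. The part of transgene copies in these values was not tested. Without the 4 members, 726 remained in 604 host genes, and the share of members, intron length, first-intron share, GC content, repeat share and replicate shares moved by less than their intervals.

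Support by the single replicates was counted next. A member summit lay in one of the best 5000 intervals of replicate 5 for 441 members (60.4%), against 61.1% of all best 5000 pooled intervals, and of replicate 6 for 291 (39.9%), against 45.6%. It lay in such an interval of both for 124 (17%), against 22.3%. It lay in one of replicate 5 alone for 317 (43.4%, against 38.7%), of replicate 6 alone for 167 (22.9%, against 23.3%) and of neither for 122 (16.7%, against 15.7%). All members had an interval of any rank in at least one replicate, 705 in replicate 5 (96.6%, against 95.7%), 593 in replicate 6 (81.2%, against 82.8%) and 568 in both (77.8%, against 78.6%). The any-rank shares and those of replicate 5, of replicate 6 alone and of neither were near those of all best 5000 intervals. The shares of replicate 6 and of both were lower, and that of replicate 5 alone was higher. Members were also fewer at the best pooled ranks, and the part of rank in these differences was not tested. The pooled ranking that chose the members was made from both libraries, so these counts describe the members and are no independent evidence for them.

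Over the 568 members with an interval in both replicate lists, the signals of the 2 replicates had a Spearman correlation of -0.16 and a Pearson correlation of -0.06 on the log2 scale. For the 3362 other best 5000 intervals in both lists the Spearman correlation of ranks was 0.04. The points share the 2 libraries and were selected on the pooled signal. The median rank was 3495 over the 705 members with a replicate 5 interval and 5078 over the 593 with a replicate 6 interval, leaving out 25 and 137 members with none, with signals from 13.98 to 126.2 (median 27.73) in replicate 5 and from 8.988 to 70.17 (median 17.2) in replicate 6. The signal scales of the lists differ and are not compared. The members that were IDR peaks had replicate 5 ranks of 5 to 650 and replicate 6 ranks of 14 to 5086. Of the 94 members among the best 1000 pooled intervals, 61 (64.9%, 54.8% to 73.8%) were in the best 5000 of both replicates, against 71% of all best 1000 pooled intervals.

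**Figure D4:**
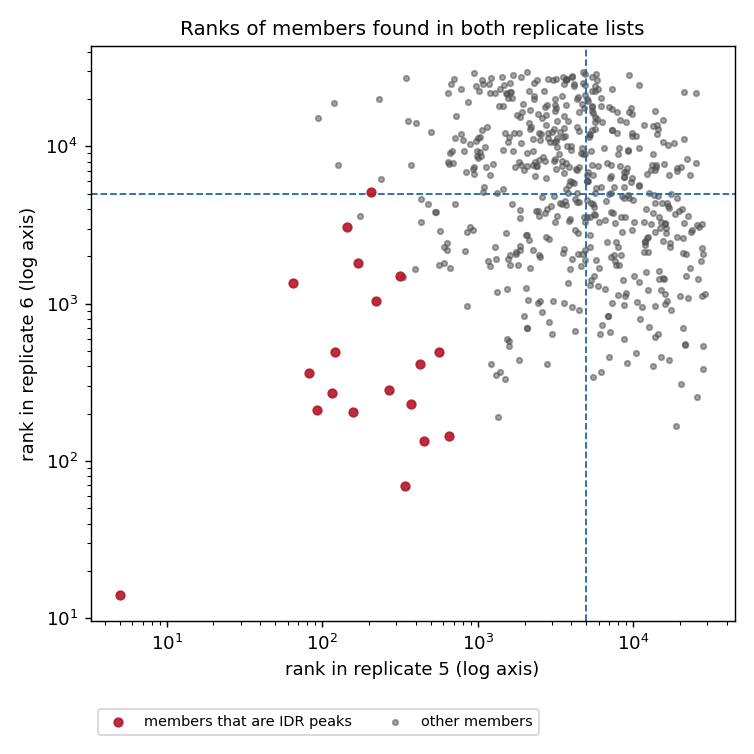
Rank in replicate 5 (horizontal, log axis) against rank in replicate 6 (vertical, log axis) for the 568 members found in both replicate lists. Red points are the IDR peaks among them and grey points the other members; dashed lines mark rank 5000. The IDR members lie at ranks of 5 to 650 in replicate 5 and of 14 to 5086 in replicate 6, where ret-1 is past the dashed line, and most grey points are beyond rank 5000 in at least one replicate.

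Member summits were richer in G and C than weaker ones. Within 50 bp of the summit the GC content had a median of 40.59% in members (quartiles 34.65% and 47.52%) and 37.62% in weaker intervals, while points 300 bp to either side had 36.63% in members and 37.13% in weaker intervals. Means within 50 bp were 41.3% in members and 38.51% in weaker intervals. The bases that met the rule had 31.92%, a share of pooled bases in no exon, whereas windows at summits can hold exon bases. GC content was higher at the summit than at the flanks for 61.4% of members and 53.4% of weaker intervals, and exceeded 50% in 17.1% and 8.84%. In intervals free of exons the median was 43.56% in members and 39.6% in weaker intervals. Mean GC content in 50-bp steps was 42.29% in members and 39.55% in weaker intervals 50 bp before the summit, and 35.95% and 36.07% at 400 bp before it. Farther out, members were again higher, with 37.78% against 36.62% at 800 bp before the summit and 38.29% against 36.46% at 800 bp after it. The means at the 300-bp flanks were 37.63% in members and 37.24% in weaker intervals. The members with the highest GC content were in daf-12, which encodes a nuclear hormone receptor (X:10637421, 72.28%, signal 41.91), F31E9.3 (V:17324052, 71.29%) and pqn-84 (III:11701944, 70.3%).

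**Figure D5:**
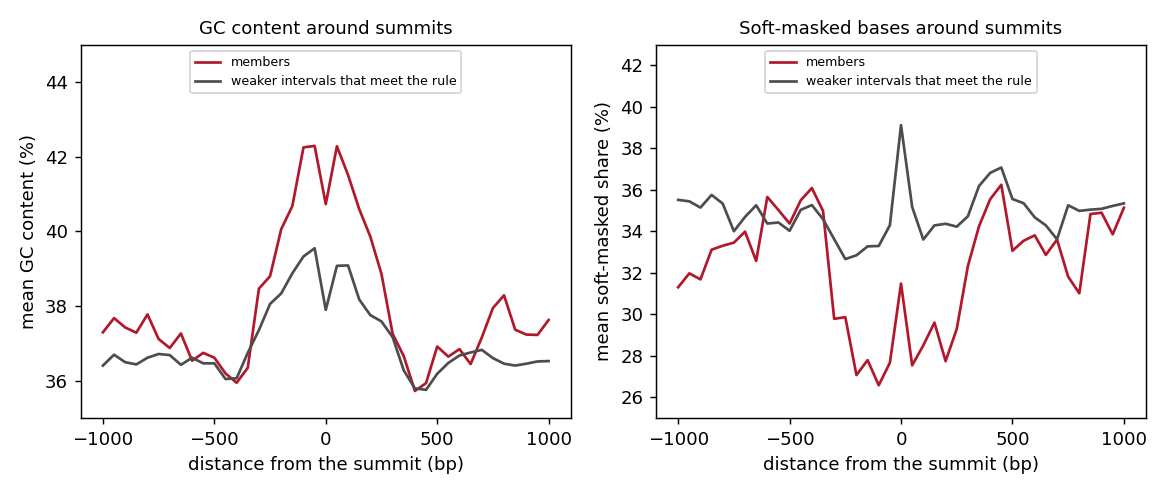
Mean GC content (left, percent) and mean share of soft-masked bases (right, percent) in windows reaching 25 bp to either side, every 50 bp, by distance from the summit (bp), for members (red) and weaker intervals that meet the same rule (grey). The member GC curve stands above the grey one within about 250 bp of the summit, reaching 42.29%, and again from 700 bp outwards. The member masked share is below the grey one within about 250 bp, at 26.59% 100 bp before the summit against 33.3%. It is also below at every step after the summit and from 650 bp outwards before it, with 31.31% against 35.52% at 1000 bp before. It is above the grey one only from 600 to 350 bp before the summit.

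Bases soft-masked in the reference as repeats or low-complexity sequence were fewer at members. Their share within 50 bp of the summit had a median of 22.77% in members and 32.67% in weaker intervals (means 29.5% and 37.43%). At the points 300 bp to either side the medians were 28.22% and 31.19%. Of all bases that met the rule, 53.56% were masked. That is a share of pooled bases in no exon, whereas windows at summits can hold exon bases. More than 50% of the window was masked in 22.3% of members (19.5% to 25.5%) and 32.1% of weaker intervals (30.8% to 33.4%). A 31-mer that occurs more than once in the genome was present in the window of 80 members (11%, 8.89% to 13.4%) and 15% of weaker intervals (14.1% to 16.1%), and 25 members (3.42%) against 6.75% of weaker intervals held one with 10 or more copies. Reads from such sequence cannot be placed by these bases alone. Members in mvk-1 (III:6133638, signal 57.4, 1297 copies) and kel-8 (V:2676683, 36.11, 507 copies) were among those with many copies. Their windows are shown with the bases of repeated 31-mers in capitals, to make visible what kind of repeat is present.

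mvk-1 (chrIII:6133588-6133688): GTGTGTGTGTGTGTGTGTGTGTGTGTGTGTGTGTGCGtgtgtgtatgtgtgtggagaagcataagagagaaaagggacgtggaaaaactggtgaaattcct
kel-8 (chrV:2676633-2676733): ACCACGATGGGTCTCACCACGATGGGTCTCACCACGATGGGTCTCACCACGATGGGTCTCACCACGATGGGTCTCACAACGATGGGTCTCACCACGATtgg

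The mvk-1 window begins with a run of the dinucleotide GT, and the kel-8 window consists almost wholly of a short tandem unit, with 98 bases in repeated 31-mers. At mvk-1 37 bases were so marked and the summit itself was outside them.

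Of the 2080 6-mers (reverse complements merged), those most frequent in member windows relative to weaker windows were GCGAAA (10.8% of members, 7.59% of weaker, 5.62% of member flanks), AATGAG (9.32%, 6.18%, 7.47%), ATCAGA (7.26%, 4.27%, 7.6%), GAGTGA (6.3%, 3.46%, 5%) and CGCGCC (6.16%, 3.36%, 1.37%). Those less frequent were words rich in A and T, led by AAAATT (32.9% of members, 43.8% of weaker, 39.1% of flanks). The differences between members and weaker windows for the first 5 were at most 3.23 percentage points. Of 15 elements searched on both strands, the repeat GCGCGC was in 3.01% of member windows (2% to 4.52%), 1.25% of weaker and 0.342% of flank windows. GAGAGA was in 8.22%, 6.14% and 5.96%, and the E-box CACGTG in 3.01%, 2.16% and 2.33%. The TATA box TATAAA was in 6.99% of members, 9.13% of weaker and 8.97% of flank windows. The others were the CRE (TGACGTCA), the AP-1 site (TGACTCA), the GATA site (TGATAA), the heat shock element (GAANNTTC), the B box (GGTTCGA), the CCAAT box (CCAAT), the homeodomain site (TAATTA), the E-box of myogenic factors (CAGCTG), the forkhead site (TGTTTAC), the octamer (ATGCAAAT) and a run of A (AAAAAAAA). For CACGTG and these 11, the share in weaker windows lay within the Wilson interval of the member share. The searched words overlap one another in part, as GCGCGC does with CGCGCC. As examples of members with GCGCGC, the windows in Y54G2A.26 and nspg-11 (IV:9322712) are shown with that word and the 9-base run CTGCGTCTC in capitals.

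Y54G2A.26 (chrIV:2993461-2993561): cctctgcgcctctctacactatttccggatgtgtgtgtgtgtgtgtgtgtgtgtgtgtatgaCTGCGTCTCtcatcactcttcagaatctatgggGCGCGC
nspg-11 (chrIV:9322662-9322762): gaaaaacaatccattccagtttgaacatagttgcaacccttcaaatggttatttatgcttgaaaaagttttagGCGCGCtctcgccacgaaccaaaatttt

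The 9-base run is the longest that the Y54G2A.26 window shares with that of epg-9. It was counted after the windows were seen. On either strand it was in 14 members (1.92%, 1.15% to 3.19%), 1.15% of weaker windows (0.887% to 1.48%) and 0.342% of windows 300 bp from member summits. The 14 include the windows of epg-9 and Y54G2A.26, which hold the run by construction. Besides those genes it was in members of zfp-1, with 2, and of cdk-12, larp-1, toh-1, lit-1 and spop-1, among others.

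Host genes were sorted into 12 lists by symbol, and 195 members (26.7%) fell into at least one, against 30.1% of weaker intervals. Genes for transcription factors held 56 members in 39 genes, 7.67% of members (5.95% to 9.83%), against 5.4% of weaker intervals and 4.23% of bases that met the rule. The strongest of them were in daf-14, which encodes a SMAD protein of the dauer TGF-beta pathway (IV:10252546, signal 63.23, rank 1597 in replicate 5 and 580 in replicate 6), pqm-1, a zinc-finger factor gene (II:11151074, 60.67, ranks 231 and 19855), and daf-16. Also in this list were members in skn-1, the worm Nrf factor gene (IV:5659413, 55.44), and hlh-30, the worm TFEB gene (IV:4026229, 44.07). Genes with several members weigh on this share, since daf-16 contributed 5 and lin-14 4.

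Among neuronal and cell-surface genes, the share of weaker intervals lay above the Wilson interval of members for 1 list. Synapse and neurotransmission genes held 12 members (1.64%, 0.943% to 2.85%), against 3.44% of weaker intervals and 2.95% of bases. They included unc-43, the gene of the calcium/calmodulin-dependent kinase CaMKII (IV:10342399, 51.91), nlp-21, a neuropeptide-like gene (III:11391953, 51.48), and snt-4, a synaptotagmin gene (I:6440423, 49.98). Axon guidance and adhesion genes held 12 (1.64%, against 2.76% and 2.47%, the weaker share within the interval of members), among them zig-7, hmr-1, the cadherin gene (I:11103107, 51.12), and lat-2, a latrophilin gene (II:4361627, 45.49). Ion channel and membrane transporter genes held 18 (2.47%, against 3.75% and 3.74%, again within it), among them best-22, a bestrophin gene (IV:12355377, 57.74), unc-9, an innexin gene (X:13204948, 48.73), and egl-8, a phospholipase C gene that the symbol pattern placed here (V:37247, 49.01).

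The other 8 lists held shares whose Wilson intervals included that of weaker intervals. Kinase and phosphatase genes held 24 members (3.29%, against 3.73% of weaker intervals), with pde-2, a phosphodiesterase gene that the symbol pattern placed here (III:8979199, 59.09), cdk-12 (III:4335895, 53.67) and dlk-1 (I:12571830, 52.98). Chemoreceptor genes held 21 (2.88%, against 3.24%), with srh-2, srt-52 (V:53487, 60.87) and srx-41 (V:3634781, 50.15). The collagen and cuticle list held 14 (1.92%, against 1.81%), with abu-12, pqn-41 (III:1921315, 57.16) and wrt-9 (X:1578758, 56.6). The symbol pattern placed pqn-41 and wrt-9 here, and neither is a collagen gene by its symbol. Muscle genes held 11 (1.51%, against 1.47%), led by act-4, an actin gene (X:4961268, 48.06), pat-12 (III:728662, 44.42) and dys-1, the dystrophin gene (I:11550007, 42). Chromatin regulators held 10 (1.37%, against 1.35%), led by the pair in mdt-26, a Mediator gene that the pattern placed here. Next was set-25, the gene of a histone methyltransferase (III:13285218, 42.29). Small G protein genes held 9 (1.23%, against 1.85%), led by rab-1 (V:1263227, 54.15), with rhgf-3 (I:14580663, 48.25), and cytoskeleton genes 9 (1.23%, against 2.16%), with mca-3, a calcium pump gene that the pattern placed here (IV:3110976, 48.85), and klp-7, a kinesin gene (III:10810433, 47.8). RNA-binding genes held 8 (1.1%, against 0.987%), led by exc-7 (II:9577781, 50.92), which the pattern also placed among the small G proteins, with msi-1, the Musashi gene (III:3967877, 46.61), and larp-1 (III:5014124, 46.43). Of all members, 241 (33%) had a host with a sequence name only, against 30.7% of weaker intervals.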

How the data were processed

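ChIP-seq peak lists of 2 biological replicates (numbers 5 and 6) were analysed. The text files deposited with them describe narrowPeak lists on ce11, made from 1 alignment, or from both pooled, with a further file of unstated kind. The aligner and the peak caller were not given in the texts used here. Signal value and −log10 q-value are those the authors deposited, used within a list only. Summits came from another value that the authors deposited, the offset from the interval start. Each list before IDR held 30000 intervals. Read depth is unknown, so signals carry no counting error, and Wilson 95% intervals cover counting over intervals only.

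Members were found with Ensembl release 115 (WBcel235, 46890 genes, 19973 protein-coding). The host was the shortest protein-coding gene that held the summit, intron length the gap between its merged exons, and intron number that of the longest transcript span. Windows were 50 bp either side of the summit, flanks 300 bp away. Members, lists and comparisons were chosen with earlier results of these data known; named members are the 25 strongest, all IDR members, the strongest 10 in both replicates, the hosts with most members and up to 3 per host list, and others were named after their values were seen. With 1 group, no test was made. Scripts (Python 3.11.15, numpy 2.4.6, pandas 2.3.3, scipy 1.17.1) were tested on simulated data. Alternatives covered ranks, distances, exon overlap, replicates, windows and, added after seeing the data, removal of members around F57C9.4. The ce10 lists were not used.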

Additional observations from a re-analysis of the deposited data

How the results depend on the processing

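Of the main values recomputed under alternatives, 50 stayed within their intervals, or within 1.5 times for counts, and 32 moved; the cause was not tested, except where the alternative keeps fewer intervals by construction. With the best 2500 pooled intervals, members were 13.4% of intervals in 288 host genes, and 76.72%, 53.73% and 34.33% were in the best intervals of replicate 5, replicate 6 and both. With the best 1000 these were 9.4%, 86 genes, 95.74%, 69.15% and 64.89%, and 25.53% lay in first introns. Over 1000 bp from any start members were 9.84% of intervals with 17.07% in first introns, and over 250 bp 18.38% with 26.12%. Intervals wholly free of exons left 382 members (7.64% of intervals) in 300 genes, with a median intron of 3122 bp, 35.6% in first introns, a median GC content of 43.56% and 14.66% with a repeated 31-mer. With the best 2500 intervals of a replicate, 38.49%, 25.34% and 8.082% of members were found in replicate 5, replicate 6 and both, and with any interval 96.58%, 81.23% and 77.81%. Repeated 25-mers were in 16.58%. Using the list of 1 replicate in place of the pooled one gave (without replicate 5, then without replicate 6) 15.68% and 15.44% of intervals, 20.41% and 18.01% in first introns, and a median GC content of 38.61% and 39.6%.

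No paired analysis was possible because there is 1 group and no result comes from a test. Within 100 bp of the summit the shares of 11 of 15 elements moved beyond their intervals. A longer window holds a short word more often by construction, so nothing is read from these moves. At this width TATAAA was in 12.7% of members and 17.1% of weaker windows, GAGAGA in 15.5% and 11.8%, and GCGCGC in 4.79% and 2.68%. The shares of 2 host lists, muscle and chromatin regulators, moved to 0.597% in the best 2500. Members had a median q-value of 0.1823, and intervals of 404 bp limit how closely a summit can be placed relative to short introns.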

Other observations

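The 9-base run CTGCGTCTC, found after the windows were seen, was unevenly spread over chromosomes among the members that held it. Of the 14, 9 were on chromosome III, which held 122 of the 730 members, while 5 of the 57 weaker intervals with the run were there. On that chromosome the run occurred 66.4 times per Mb on either strand, against 18.2 to 55.1 times per Mb on the others. The 9 members on chromosome III were in cdk-12 (III:4335895), zfp-1 (III:8802109 and III:8794990), Y53G8AM.8 (III:3271841), larp-1 (III:5014124), toh-1 (III:3807808), lit-1 (III:13713070), spop-1 (III:10096715) and F56A8.3 (III:13258965), with pooled signals of 37.6 to 53.67.

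Some members had high signal in 1 replicate and low rank in the other. For pde-2 (III:8979199) the replicate 5 rank was 94 and the replicate 6 rank 15036. For pqm-1 (II:11151074) these were 231 and 19855. For nlp-21 (III:11391953) they were 9060 and 421.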
